A study of Mus musculus with 6 samples.

Results

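Transcripts of the D-type cyclins, of the kinases they activate, of the inhibitors of those kinases and of Myc were measured in mouse CD8 T cells that had received supernatant of IL-3-treated basophils. The 10 genes were Cdkn1a, Cdkn1b, Cdkn2a, Cdkn2c, Cdkn2d, Ccnd2, Ccnd3, Cdk4, Cdk6 and Myc. They are a named list of genes that act in the G1 phase of the cell cycle, out of 46517 gene identifiers, and the list was drawn up with earlier results of these data known. D-type cyclins bind and activate Cdk4 and Cdk6, which phosphorylate the retinoblastoma protein and its relatives and so free E2F factors to switch on the genes of DNA replication. Inhibitors of the INK4 family bind Cdk4 and Cdk6 themselves, whereas those of the Cip/Kip family bind complexes of cyclin and kinase. Activated T cells raise Ccnd2, Ccnd3, Cdk4, Cdk6 and Myc as they leave quiescence, and Myc drives their growth.

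In the IL-3 supernatant group (3 libraries), naive T cells of C57BL/6J mice received supernatant of basophils cultured for 2 days with IL-2 at 100 units/mL and IL-3 at 3 ng/mL. In the PBS supernatant group (3 libraries), PBS replaced IL-3 in the basophil culture. Both groups were stimulated for 3 days on plates coated with antibody to CD3 (5 µg/mL), with antibody to CD28 (0.5 µg/mL) and IL-2 (100 units/mL), and the supernatant was present from day 1 to day 2. No group analysed here received IL-3 in medium that had not been on basophils, so IL-3 carried over in the supernatant and products of the basophils cannot be told apart. Whether the replicates were separate mice or cultures is not stated in the labels. The p-values therefore reflect the spread among these libraries, which may be technical.

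Expected counts per library summed to between 19283416 and 22174902 with IL-3 supernatant and between 17377052 and 18753617 with PBS supernatant. The groups separated on the first principal component (63.0% of the variance), and PBS supernatant replicate 2 stood apart from the other libraries on the second (14.7%). Of the 9 markers of CD8 T cells, all 9 averaged at least 1 CPM (counts scaled to the TMM-corrected size of the library). Their sum was 1982 to 2197 CPM with IL-3 supernatant and 2703 to 2881 CPM with PBS supernatant. In the edgeR test given below, 2 of the 9 were higher and 6 lower (14.8% and 16.1% of all genes). Cd8a differed most, at 367 to 395 CPM with IL-3 supernatant and 805 to 886 CPM with PBS supernatant. Summed markers of basophils and mast cells stood at 0.715 to 1.80 CPM with IL-3 supernatant and 2.55 to 3.51 CPM with PBS supernatant, and 4 of the 8, including Mcpt8 and Fcer1a, were at 0 in every library. Kit alone carried that difference, at 0.464 to 0.811 CPM with IL-3 supernatant and 2.27 to 3.23 CPM with PBS supernatant. The 3 markers of CD4 T cells did not move together. Zbtb7b stood at 16.9 to 19.4 CPM with IL-3 supernatant and 4.85 to 8.24 CPM with PBS supernatant, and Foxp3 at 0.0511 to 0.258 CPM with IL-3 supernatant and 4.84 to 9.58 CPM with PBS supernatant. Cd4 itself stayed at or under 0.495 CPM with IL-3 supernatant and 0.831 CPM with PBS supernatant. Their sum was 17.6 to 19.7 CPM with IL-3 supernatant and 13.5 to 15.2 CPM with PBS supernatant. Summed markers of B cells, macrophages and NK cells each stayed under 4 CPM in all 6 libraries. All 5 neutrophil markers were at 0 in all 6 libraries. The part of these differences in the results was not tested.

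With IL-3 supernatant, CD8 T cells carried 2.41 times as much transcript of the kinase inhibitor Cdkn1a as with PBS supernatant, and 0.407 times as much of the INK4 inhibitor Cdkn2c. The INK4 inhibitor Cdkn2d and the cyclin Ccnd2 were higher, the cyclin Ccnd3 and Myc were lower, and Cdk4, Cdk6 and Cdkn1b did not pass the test. Cdkn2a was too low to be tested. Of the 9 members tested, 3 were higher (14.8% of all 12407 genes tested were higher) and 3 were lower (16.1% of all genes were lower), by edgeR's quasi-likelihood test with a Benjamini-Hochberg adjusted p under 0.05. Together 6 of the 9 passed, against 30.9% of all genes. In the same 6 members the CPM of the 3 IL-3 supernatant libraries did not overlap those of the 3 PBS supernatant libraries, which held for 43.6% of all genes. The median log2 fold change was -0.17 over the 9 members and -0.0047 over all genes tested. In bulk libraries, fewer cells expressing a gene and less RNA of it per cell cannot be told apart.

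**Figure D1:**
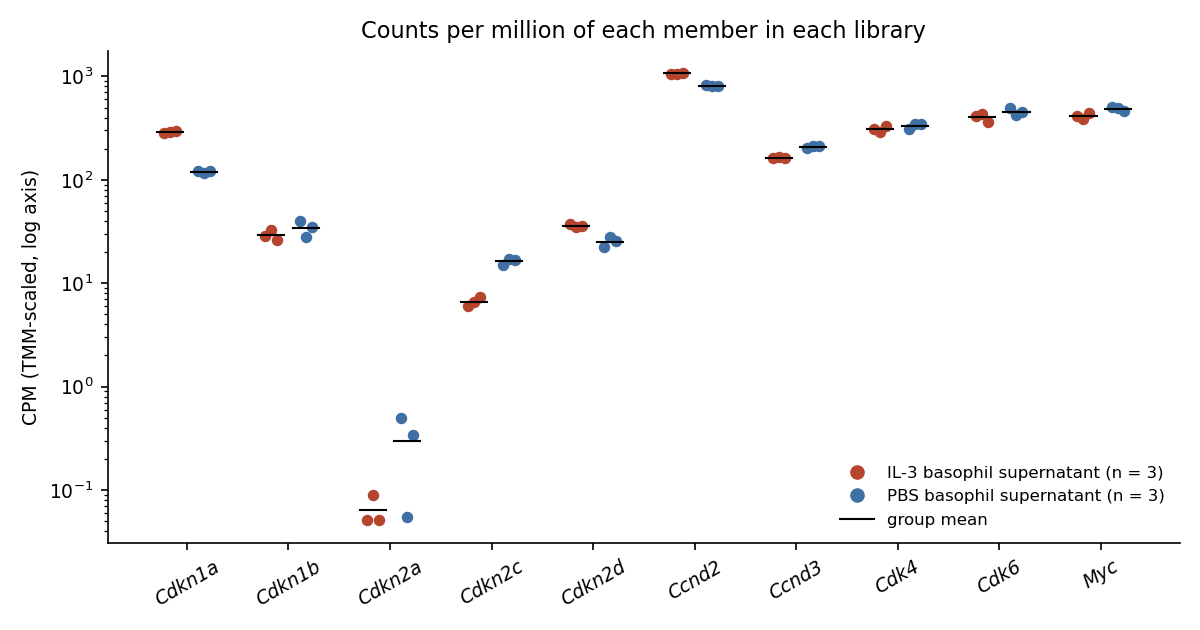
Expression of the 10 genes in each library, in TMM-scaled CPM on a logarithmic axis, with IL-3 supernatant left of PBS supernatant in each pair; points are libraries and lines are group means. The groups stand apart for Cdkn1a, Cdkn2c, Cdkn2d, Ccnd2, Ccnd3 and Myc and overlap for Cdkn1b, Cdkn2a, Cdk4 and Cdk6.

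Cdkn1a (ENSMUSG00000023067, chr17:29090976-29100727, plus strand, GRCm38) encodes p21, a Cip/Kip inhibitor that p53 induces after DNA damage and that is also raised in activated T cells. It stood at 286, 288 and 295 CPM in IL-3 supernatant replicates 1 to 3 and at 122, 117 and 121 CPM in PBS supernatant replicates 1 to 3. The lowest IL-3 supernatant library was more than double the highest PBS supernatant library, and replicates within a group lay close together. The log2 fold change was 1.27 (edgeR adjusted p = 1.11e-11, SE 0.05, 95% interval 1.16 to 1.38), larger in size than that of 93.5% of the genes tested. Under every alternative run, including the omission of each library, it stayed between 1.22 and 1.29. An annotated gene on the opposite strand, AC167363.2, shares 273 of its exonic bases and was not analysed here.

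RefSeq places 2 start sites of Cdkn1a 2790 bases apart, and both windows, each from 250 bases before to 50 after the start (GRCm38.p6), are shown because they differ in how much transcript begins there. Isoform values were given for PBS supernatant replicate 2 alone. In that library 92.4% of Cdkn1a TPM belonged to an isoform that starts within 50 bases of the downstream site and 5.98% to one that starts within 50 bases of the upstream site. Capitals mark decamers of the p53 response element, and the plus strand is printed.
Cdkn1a, upstream start, chr17:29090729-29091028: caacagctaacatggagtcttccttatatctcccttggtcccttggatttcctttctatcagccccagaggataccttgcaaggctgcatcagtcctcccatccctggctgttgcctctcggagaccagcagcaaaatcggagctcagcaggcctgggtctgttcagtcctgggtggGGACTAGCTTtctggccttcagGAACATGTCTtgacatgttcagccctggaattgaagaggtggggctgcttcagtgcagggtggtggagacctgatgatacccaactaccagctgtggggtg
Cdkn1a, downstream start, chr17:29093519-29093818: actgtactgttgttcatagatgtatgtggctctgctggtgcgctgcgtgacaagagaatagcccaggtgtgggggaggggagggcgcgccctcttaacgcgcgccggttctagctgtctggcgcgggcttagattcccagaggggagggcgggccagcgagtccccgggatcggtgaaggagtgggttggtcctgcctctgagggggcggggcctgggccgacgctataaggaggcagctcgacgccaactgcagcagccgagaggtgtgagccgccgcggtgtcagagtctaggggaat
The upstream window held 2 p53 decamers, beginning at positions -73 and -51 relative to the start site. The downstream window held no match to any motif searched. Over 27025 RefSeq windows of this length, the first listed of each gene, 8.37% held a p53 decamer on either strand and 0.326% held 2 or more. The members were searched in every window they had. A match describes letters only and does not show that a factor binds.

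Cdkn1b (ENSMUSG00000003031, chr6:134920401-134925513, plus strand) encodes p27, the Cip/Kip inhibitor that holds resting T cells in quiescence and is degraded on activation. It stood at 28.7, 32.4 and 25.9 CPM with IL-3 supernatant and at 40.2, 27.7 and 34.7 CPM with PBS supernatant, and the groups overlapped through PBS supernatant replicate 2. The log2 fold change was -0.24 (edgeR adjusted p = 0.202, SE 0.13, 95% interval -0.52 to 0.05). Without PBS supernatant replicate 2, the library set apart on the second principal component, it was -0.36 with edgeR adjusted p = 0.0233, so that library decided the call. Cdkn1a made up 94.5% ± 0.268 of the summed TPM of the pair with IL-3 supernatant and 85.9% ± 1.75 with PBS supernatant (SD, n = 3 each). TPM, the authors' second unit, are scaled for transcript length. In CPM the difference in that share was 12.96 percentage points, against 8.60 in TPM.

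Of the INK4 genes, Cdkn2c fell and Cdkn2d rose. Cdkn2c (ENSMUSG00000028551, chr4:109660876-109667189, minus strand) encodes p18Ink4c, which restrains Cdk6 in lymphocytes. It stood at 5.97, 6.57 and 7.40 CPM with IL-3 supernatant and at 15.0, 17.1 and 16.9 CPM with PBS supernatant. These values rest on 116 to 146 expected counts per IL-3 supernatant library and 270 to 309 per PBS supernatant library, and the groups lay far apart. The log2 fold change was -1.30 (edgeR adjusted p = 8.58e-07, SE 0.13, 95% interval -1.58 to -1.02), with a range of -1.38 to -0.98 over the alternatives.

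Cdkn2d (ENSMUSG00000096472, chr9:21288410-21291407, minus strand) encodes p19Ink4d, another inhibitor of Cdk4 and Cdk6. It stood at 37.2, 34.6 and 35.6 CPM with IL-3 supernatant and at 22.4, 27.8 and 25.7 CPM with PBS supernatant. Every IL-3 supernatant library was above every PBS supernatant library, and the PBS supernatant libraries were the more spread. Cdkn2d rose by 0.50 on the log2 scale (edgeR adjusted p = 0.000507, SE 0.09, 95% interval 0.31 to 0.70).

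Cdkn2a (ENSMUSG00000044303, chr4:89274471-89294653, minus strand) encodes p16Ink4a and, in another reading frame, p19Arf, which blocks Mdm2, and the gene count does not separate them. It held 1, 2 and 1 expected counts in the IL-3 supernatant libraries and 9, 1 and 6 in the PBS supernatant libraries, below the filter of the test. PBS supernatant replicate 2 was as low as the IL-3 supernatant libraries, so the groups overlapped. The summed counts were 4 with IL-3 supernatant and 16 with PBS supernatant, a ratio scaled for library size of 0.219 with an exact binomial 95% interval of 0.0532 to 0.678. That interval covers counting error only.

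The makeup of the INK4 family differed between the groups. Cdkn2d made up 89.3% ± 0.912 of the INK4 TPM with IL-3 supernatant and 71.5% ± 0.537 with PBS supernatant, and Cdkn2c made up 10.4% ± 0.843 with IL-3 supernatant and 27.2% ± 1.26 with PBS supernatant (SD, n = 3 each). The summed INK4 level was 61.7 ± 1.65 TPM with IL-3 supernatant and 53.4 ± 4.10 TPM with PBS supernatant, where the libraries did not overlap. In CPM, which are not scaled for length, the sums were 42.5 ± 1.08 with IL-3 supernatant and 41.9 ± 3.62 with PBS supernatant, and the libraries overlapped. These sums and shares have no test of their own.

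Ccnd2 (ENSMUSG00000000184, chr6:127125162-127152193, minus strand) encodes cyclin D2, which antigen and IL-2 receptor signals induce in T cells. It was the member with the most counts, at 1065, 1062 and 1076 CPM with IL-3 supernatant and 829, 810.2 and 803 CPM with PBS supernatant. The groups were far apart relative to the spread within them, the IL-3 supernatant libraries having a coefficient of variation of 0.681% and the PBS supernatant libraries one of 1.67%. Ccnd2 rose by 0.39 on the log2 scale (edgeR adjusted p = 5.68e-06, SE 0.05, 95% interval 0.29 to 0.49), or 1.31-fold.

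Ccnd3 (ENSMUSG00000034165, chr17:47505051-47599691, plus strand) encodes cyclin D3, which developing and activated T cells need for proliferation. It went the other way, at 164, 165 and 163 CPM with IL-3 supernatant and 203, 212 and 212 CPM with PBS supernatant, with no overlap. Ccnd3 fell by 0.35 on the log2 scale (log2 fold change -0.35, edgeR adjusted p = 4.57e-05, SE 0.05, 95% interval -0.46 to -0.24). It shares 361 exonic bases with Bysl, a ribosome biogenesis gene on the opposite strand, and the library kit does not mark strand, so reads there cannot be told apart. Bysl itself had a log2 fold change of -0.07 (edgeR adjusted p = 0.486, SE 0.07).

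Ccnd2 made up 66.4%, 66.5% and 67.7% of the summed TPM of both cyclins in the IL-3 supernatant libraries and 56.5%, 53.9% and 54.0% in the PBS supernatant libraries. In CPM the share was 86.7% ± 0.143 with IL-3 supernatant and 79.6% ± 0.665 with PBS supernatant, a difference of 7.14 percentage points against 12.1 in TPM. The sum of both was 502 ± 2.29 TPM with IL-3 supernatant and 458 ± 12.8 TPM with PBS supernatant (SD, n = 3 each), without overlap. Ccnd1, the D-type cyclin of most other tissues, was nearly silent, with 47 expected counts over the IL-3 supernatant libraries and 14 over the PBS supernatant libraries. Its log2 fold change of 1.52 (SE 0.60) did not pass in edgeR (adjusted p = 0.0669).

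**Figure D2:**
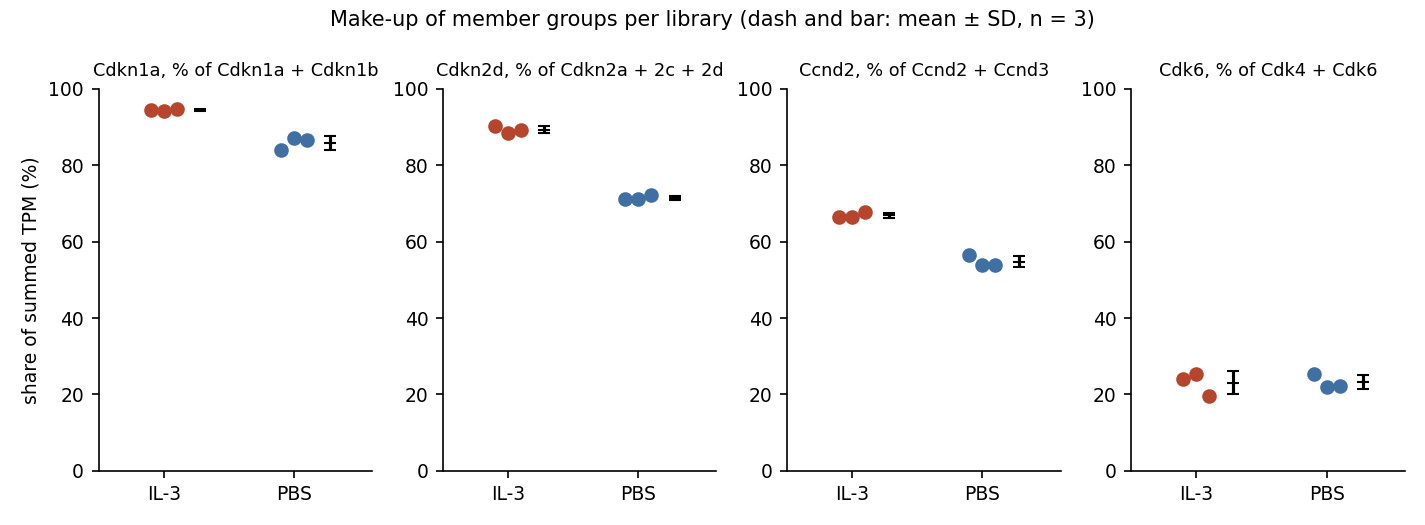
Shares of the members in summed TPM by library, with IL-3 supernatant left of PBS supernatant in each panel. Points are libraries, and dashes with bars are group means ± SD (n = 3). The shares of Cdkn1a, Cdkn2d and Ccnd2 were higher in every IL-3 supernatant library than in any PBS supernatant library, while the Cdk6 share overlapped.

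The kinases differed less. Cdk4 (ENSMUSG00000006728, chr10:127063534-127067920, plus strand) stood at 310.2, 291 and 329 CPM with IL-3 supernatant and at 307, 346 and 344 CPM with PBS supernatant. PBS supernatant replicate 1 lay among the IL-3 supernatant libraries. The log2 fold change was -0.10 (edgeR adjusted p = 0.244, SE 0.06, 95% interval -0.23 to 0.03). With PBS supernatant replicate 1 left out it was -0.15 with edgeR adjusted p = 0.0313. Cdk4 shares 641 exonic bases with Tspan31 on the opposite strand, a tetraspanin gene whose log2 fold change was 0.27 (edgeR adjusted p = 0.00973, SE 0.07). The part of that overlap in the Cdk4 value was not tested.

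Cdk4 is a classical target of Myc, which binds the E-box CACGTG together with Max, and its promoter is printed because of the number of these motifs it holds. The window covers 250 bases before to 50 after the RefSeq start (GRCm38.p6, plus strand), with E-boxes in capitals.
Cdk4, chr10:127063285-127063584: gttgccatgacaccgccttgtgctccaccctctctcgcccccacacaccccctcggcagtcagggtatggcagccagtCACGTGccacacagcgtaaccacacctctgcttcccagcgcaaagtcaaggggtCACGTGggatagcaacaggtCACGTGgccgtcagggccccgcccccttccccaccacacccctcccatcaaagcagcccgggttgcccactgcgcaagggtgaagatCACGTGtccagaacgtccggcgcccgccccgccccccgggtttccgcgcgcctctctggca
It held 4 E-boxes, beginning at positions -172, -118, -98 and -11 relative to the start site. Of the 27025 RefSeq windows, the first listed of each gene, 7.24% held at least 1 such E-box and 6 windows (0.0222%) held 4 or more. Among the other windows of these genes, an E-box began at position -220 of Cdk6 and another at position 35 of Cdkn2c. A p53 decamer began at position -102 of Cdkn2d. The E2F element TTTCCCGC began at position -99 of Cdkn2a, and 1.11% of the 27025 windows held that element. Also searched on both strands were the STAT palindrome TTCNNNGAA, held by 8.47% of the 27025 windows, and the E2F element TTTGGCGC, held by 0.537%. Neither was found in the windows of the members that had a window (all but Ccnd2 and Myc).

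Cdk6 (ENSMUSG00000040274, chr5:3341485-3531008, plus strand), the other partner of the D-type cyclins, stood at 415, 433 and 365 CPM with IL-3 supernatant and at 489.5, 423 and 457 CPM with PBS supernatant. IL-3 supernatant replicate 2 exceeded PBS supernatant replicate 2, so the groups overlapped. The log2 fold change was -0.17 (edgeR adjusted p = 0.0708, SE 0.07, 95% interval -0.32 to -0.03). The call depended on single libraries: without IL-3 supernatant replicate 2 it was -0.21 (edgeR adjusted p = 0.0426), omission of PBS supernatant replicate 2 gave -0.22 (edgeR adjusted p = 0.0394), and with no filter on low counts it was -0.17 (edgeR adjusted p = 0.0163). Cdk6 shares 368 exonic bases with Gm17590 on the opposite strand, and reads there cannot be told apart. Cdk6 made up 23.0% ± 2.98 of the summed TPM of Cdk4 and Cdk6 with IL-3 supernatant and 23.2% ± 1.90 with PBS supernatant (SD, n = 3 each), a difference within the spread of the libraries.

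Myc (ENSMUSG00000022346, chr15:61985391-61990374, plus strand), the transcription factor that drives growth of activated T cells, stood at 417, 391 and 444 CPM with IL-3 supernatant and at 502, 494 and 458 CPM with PBS supernatant. The groups did not overlap, but the highest IL-3 supernatant library and the lowest PBS supernatant library lay close together. Myc fell by 0.22 on the log2 scale (log2 fold change -0.22, edgeR adjusted p = 0.00876, SE 0.06, 95% interval -0.34 to -0.09). The call was lost without IL-3 supernatant replicate 2 (-0.16, edgeR adjusted p = 0.0657), as it was without PBS supernatant replicate 2 (-0.19, edgeR adjusted p = 0.0518) and on log2 TPM (limma adjusted p = 0.0829 to 0.196).

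**Figure D3:**
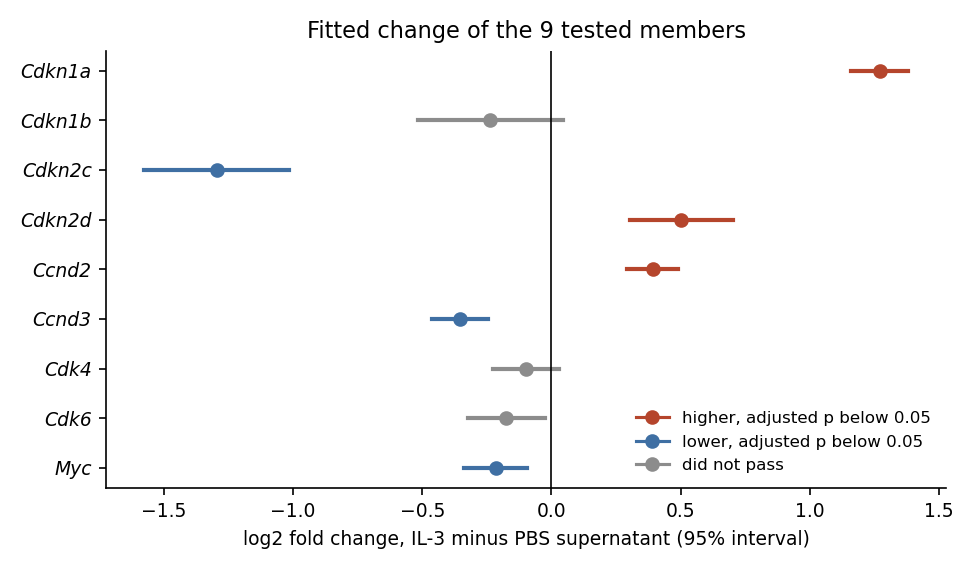
Log2 fold change, IL-3 minus PBS supernatant, of the 9 tested genes with 95% intervals from edgeR's fit over all genes. Cdkn1a at 1.27 and Cdkn2c at -1.30 lie farthest from 0, and the intervals of Cdkn1b and Cdk4 include 0.

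On the per-length scale of TPM, the order of levels differed between the groups. With IL-3 supernatant, Myc averaged 358 TPM, Ccnd2 336 TPM, Cdk4 326 TPM and Cdkn1a 309.5 TPM, and each of these neighbours overlapped in its range over libraries. Ccnd3 followed at 166 TPM, Cdk6 at 97.0 TPM, Cdkn2d at 55.2 TPM, Cdkn1b at 18.0 TPM, Cdkn2c at 6.43 TPM and Cdkn2a at 0.146 TPM, each apart from its neighbours. With PBS supernatant the order of means was Myc at 410.3 TPM, Cdk4 at 347 TPM, Ccnd2 at 251 TPM, Ccnd3 at 207 TPM, Cdkn1a at 128 TPM, Cdk6 at 105 TPM, Cdkn2d at 38.2 TPM, Cdkn1b at 21.1 TPM, Cdkn2c at 14.6 TPM and Cdkn2a at 0.655 TPM, and no neighbours overlapped in their range. Cdkn1a thus stood above Ccnd3 in every IL-3 supernatant library and below Ccnd3 in every PBS supernatant library. It stood above Cdk6 in every library of both groups.

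Summed over the 5 inhibitors, the level was 385, 385 and 398 TPM with IL-3 supernatant and 207, 193 and 207 TPM with PBS supernatant, most of it Cdkn1a. Divided by the summed D-type cyclins, this gave 0.769, 0.770 and 0.789 with IL-3 supernatant and 0.446, 0.435 and 0.445 with PBS supernatant. The ratio was higher in every IL-3 supernatant library.

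Around these genes, transcripts of the pocket protein and E2F family were lower with IL-3 supernatant or did not pass. Of 13 tested in edgeR, 7 fell and 0 rose (0 also in DESeq2 and limma-voom, and 0 at an unadjusted p under 0.05). Of all genes tested, 16.1% fell and 14.8% rose. The median log2 fold change of the 13 was -0.29, against -0.0047 over all genes. The activator E2f2 stood at 58.3 ± 3.995 CPM with IL-3 supernatant and 83.8 ± 3.23 CPM with PBS supernatant (mean ± SD over 3 libraries each), a log2 fold change of -0.52 (edgeR adjusted p = 1.28e-05, SE 0.07). The repressors E2f7, E2f8 and E2f6 fell by 0.56, 0.43 and 0.47 on the log2 scale, and the pocket protein gene Rbl1 fell by 0.32. Without IL-3 supernatant replicate 1, 1 gene of this list rose. On log2 TPM (limma), 5 fell over 6 libraries, and 4 fell and 1 rose without a filter.

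Of 22 E2F target genes tested in edgeR, 9 fell and 0 rose (0 also in DESeq2 and limma-voom, 1 at an unadjusted p under 0.05). Among all genes 16.1% fell and 14.8% rose. The median of the list was -0.12, and the decreases were small. Ccna2, the cyclin of S phase, stood at 246 ± 4.44 CPM with IL-3 supernatant and 298 ± 6.54 CPM with PBS supernatant, a log2 fold change of -0.28 (edgeR adjusted p = 0.000351, SE 0.05). The replicative helicase genes Mcm7 and Mcm6 fell by 0.25 and 0.27 on the log2 scale and E2f1, itself a target, fell by 0.42. The number that fell was 6 to 11 when each library in turn was left out, and 1 gene rose without IL-3 supernatant replicate 2. On log2 TPM over 6 libraries (limma) only 5 fell, with a pseudocount of 1 or 0.1. Of 9 other genes of G1 and S phase that were tested (cyclins, kinases and their activators), Ccna2 and Ccnh fell in edgeR (16.1% of all genes fell). Ccnh, a partner of Cdk7, fell by 0.37, and the median of the 9 was 0.08. None rose in edgeR, DESeq2 or limma-voom, 1 was higher at an unadjusted p under 0.05, and 1 rose without PBS supernatant replicate 1. The inhibitors of that list, Cdkn1c and Cdkn2b, were below the filter and not tested. Lists share genes, Ccna2 and Rbl1 among them, so their counts are not independent.

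Of 18 genes that p53 is known to induce, 8 rose and 2 fell (14.8% and 16.1% of all genes). Their median was 0.22, and Cdkn1a is not counted among them. On log2 TPM without a filter (limma), 5 rose and 2 fell. Plk2, a polo-like kinase, stood at 134.5 ± 11.1 CPM with IL-3 supernatant and 73.7 ± 1.52 CPM with PBS supernatant, a log2 fold change of 0.87 (edgeR adjusted p = 2.2e-08, SE 0.07). The death receptor gene Tnfrsf10b rose by 0.75 and the antiproliferative gene Btg2 by 0.47 on the log2 scale. In the opposite direction, Trp53inp1 stood at 31.1 ± 3.64 CPM with IL-3 supernatant and 79.8 ± 9.85 CPM with PBS supernatant, a log2 fold change of -1.36 (edgeR adjusted p = 3.09e-07, SE 0.10), and Sesn1 fell by 0.70.

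Among 14 regulators of the level and turnover of these inhibitors, 3 rose and 4 fell (14.8% and 16.1% of all genes), with a median of 0.02. Counts this small say little about the list as a whole. The fourth lower gene, Cks1b, a cofactor in the degradation of p27 that was chosen after its values were seen, was near the threshold (edgeR adjusted p = 0.0452), and 3 genes fell with DESeq2 or limma-voom. Trp53 itself, the gene of p53, stood at 176 ± 9.52 CPM with IL-3 supernatant and 212 ± 11.7 CPM with PBS supernatant, a log2 fold change of -0.27 (edgeR adjusted p = 0.00184, SE 0.06). Mdm2, which degrades p53 and is also its target, rose by 0.30 on the log2 scale. Foxo3, which can induce Cdkn1b, rose by 0.31, and Ezh2, the methyltransferase that silences Cdkn2a, rose by 0.25. Usp28, a deubiquitinase that stabilises Myc, had the largest change of the list, at 12.3 ± 1.25 CPM with IL-3 supernatant and 30.1 ± 1.32 CPM with PBS supernatant, a log2 fold change of -1.29 (edgeR adjusted p = 4.64e-08, SE 0.10).

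**Figure D4:**
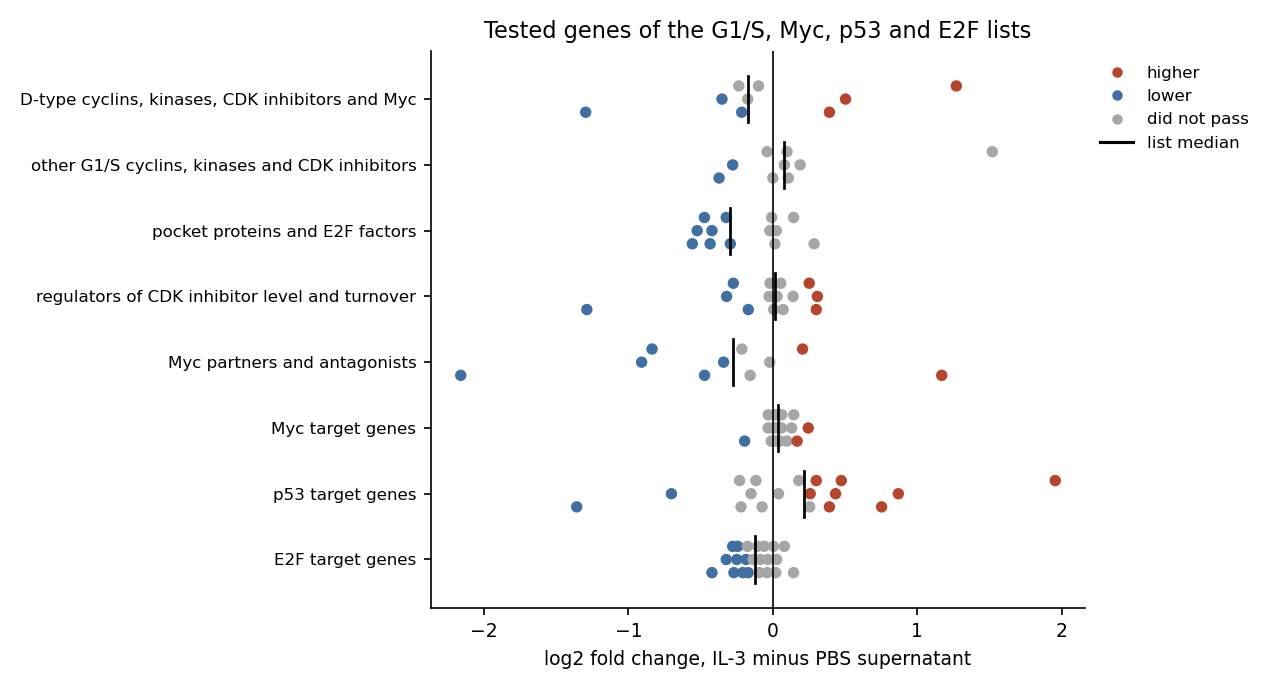
Log2 fold change, IL-3 minus PBS supernatant, of each tested gene of the 10 members and of 7 lists around them; points are genes and vertical lines are list medians. Coloured points passed edgeR's adjusted p below 0.05. Among pocket proteins and E2F factors and among E2F target genes, every coloured point is lower.

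Several partners and antagonists of Myc had larger fold changes than Myc. Of 10 tested, 2 rose and 5 fell (14.8% and 16.1% of all genes), with a median of -0.28. Max, the obligate partner of Myc, stood at 80.6, 85.2 and 82.3 CPM with IL-3 supernatant and 164, 143 and 137 CPM with PBS supernatant, without overlap. Its log2 fold change was -0.84 (edgeR adjusted p = 5.86e-08, SE 0.07). Mxi1, which competes with Myc for Max, stood at 36.5, 35.7 and 36.7 CPM with IL-3 supernatant and 20.7, 14.1 and 13.6 CPM with PBS supernatant, a log2 fold change of 1.17 (edgeR adjusted p = 2.13e-05, SE 0.14). Mycn, a paralogue of Myc, was far less abundant, at 0.852 ± 0.365 CPM with IL-3 supernatant and 3.83 ± 0.490 CPM with PBS supernatant, a log2 fold change of -2.16 (edgeR adjusted p = 0.000147, SE 0.35). The antagonist gene Mxd3 fell by 0.91 and Mlxip, of the related Mlx branch, fell by 0.34. Without PBS supernatant replicate 3, and on log2 TPM (limma), 1 gene of this list rose.

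Of 20 Myc target genes, mostly of ribosome biogenesis and metabolism, 17 did not pass, 2 rose and 1 fell, with a median of 0.04. Over all genes 14.8% rose and 16.1% fell, together 30.9%. The nucleolar gene Nop56 stood at 731 ± 15.3 CPM with IL-3 supernatant and 617 ± 5.26 CPM with PBS supernatant, a log2 fold change of 0.24 (edgeR adjusted p = 0.000791, SE 0.05). Odc1, the enzyme that begins polyamine synthesis, rose by 0.17 on the log2 scale, and Fbl, the methyltransferase of ribosomal RNA, fell by 0.20. These counts turned on single libraries, with 1 to 3 genes higher and 0 to 1 lower when each library in turn was left out.

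For each member that passed, the genes with the most similar profile over the 6 libraries were found by the root mean square difference of mean-centred log2 CPM, among 7413 genes averaging 4 or more in log2 CPM. Nearest to Cdkn1a were Stat5a, with a difference of 0.0327 and a log2 fold change of 1.25, then Cd274 (PD-L1) and Bcl2l2, at log2 fold changes of 1.29 and 1.35. Nearest to Cdkn2c were Ifi47, with a difference of 0.0587 and a log2 fold change of -1.28, then Il16 and Itga6. For Cdkn2d they were Slco4a1, Gpx4 and Abi2, and for Ccnd2 they were Crim1, Laptm5 and Hspa9. For Ccnd3 they were Dock2, Tap1 and Was, and for Myc they were Snapc4, Per1 and Narf. The profiles are 6 values in 2 separate groups, so genes with a like difference between the groups lie near each other by construction.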

How the data were processed

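Poly(A) RNA-seq libraries of CD8 T cells, 3 with IL-3 and 3 with PBS basophil supernatant, were grouped by title. RSEM 1.2.12, Bowtie2 2.2.0, edgeR 3.20.9 and GRCm38 are named, with no role or order, per the submitters' processing notes. Which annotation and strand setting were used is not given in the sources used here. An Illumina TruSeq RNA kit (v2) followed poly(A) capture, per the labels' protocols. It does not mark strand, so overlapping antisense genes can share reads.

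The authors deposited expected counts per gene, in which reads that fit several genes are divided among them. These were rounded to whole numbers. The deposited TPM, scaled for length, were by gene in 5 libraries; PBS supernatant replicate 2 had isoform values, which were summed (99.7% of its TPM matched a gene). Gene symbols matched 46005 of 46517 identifiers, and GENCODE's GRCm38 annotation gave the coordinates.

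All genes were fitted in edgeR 4.0.16 (R 4.3.3) with filterByExpr, TMM factors, robust quasi-likelihood, 1 term for group and no block, with Benjamini-Hochberg adjustment over 12407 genes at a threshold of 0.05. The code was tested on simulated data. Differences in log2 are IL-3 minus PBS supernatant, with SE and 95% intervals from the fit. No pair of libraries agreed within sampling noise. Depth limits a gene with 0 counts to 0.135 to 0.173 CPM per library (3 counts, counting error only). For sums of few counts, an exact binomial interval is given.

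Members and lists were chosen with earlier results of these data known. From each pathway list up to 5 tested genes with the smallest p are named, and for each member that passed, 3 genes of similar profile. Alternatives were other scalings (size factors of DESeq2, library size alone), no filter, CPM of at least 1 in 3 libraries, a block for replicate number, omission of each library, the DESeq2 1.42.0 Wald test, limma 3.58.1 (voom, and log2 TPM with pseudocounts of 1 and 0.1, without a filter, and over 5 libraries) and an adjusted p below 0.01. A fit without CT010467.1, a gene that took 0.433% to 4.51% of a library, was added after seeing the data. Promoter windows and their motifs came from RefSeq (GRCm38.p6). Python 3.11.15, pandas 2.3.3 and matplotlib 3.10.9 read tables and drew plots.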

Additional observations from a re-analysis of the deposited data

How the results depend on the processing

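Cdkn1a, Cdkn2c, Cdkn2d, Ccnd2 and Ccnd3 kept their direction and passed under all 19 alternatives run, whereas the calls of Myc, Cdk6, Cdk4 and Cdkn1b depended on single libraries, and Myc also missed the threshold on log2 TPM (limma adjusted p = 0.0829 to 0.196). When each library in turn was left out, 1456 to 1916 genes were higher and 1601 to 2102 lower, and 3 members were higher and 3 to 4 lower. At an adjusted p below 0.01, 1217 genes were higher. With log2(TPM + 1), 1103 genes were higher and 1030 lower without a filter, and 1158 were higher over 5 libraries; of the genes of the lists other than the members, 9 were higher (without a filter and over 5 libraries) and 14 lower (without a filter), against 14 higher and 27 lower in the counts. The cause was not tested. The difference in the ratio of inhibitors to D-type cyclins was 0.334 in TPM and 0.1015 in CPM, which weights genes by length. The Cdk6 share of both kinases differed by -0.138 percentage points, and by -1.27 to 1.55 when each library in turn was left out: 1.55 without IL-3 supernatant replicate 3 and 0.9495 without PBS supernatant replicate 1.

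With the replicate number as a block, 1634 genes were higher and 1776 lower, and the members gave 3 higher and 3 lower. Deviations of same-numbered libraries correlated at -0.148, 0.0517 and 0.255, and libraries did not all correlate best with their own number. No pairing was evident. Deviations from the mean of 3 libraries constrain one another, so these values cannot exclude a pairing. Depth limits what can be said of Cdkn2a, and 3 libraries per group limit calls on small differences.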

Other observations

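Further inhibitors of the same families were close to the limit of detection. Cdkn2b, the INK4 gene next to Cdkn2a, held 1, 2 and 0 expected counts in the IL-3 supernatant libraries and 1, 8 and 4 in the PBS supernatant libraries, a ratio scaled for library size of 0.202 with an exact binomial 95% interval of 0.0369 to 0.735. Cdkn1c, the third Cip/Kip gene, held 7 counts with IL-3 supernatant and 10 with PBS supernatant. Its ratio scaled for library size was 0.612, with an exact binomial 95% interval of 0.198 to 1.78. The Cdkn2b groups overlapped, and PBS supernatant replicate 2 held 8 of the 13 Cdkn2b counts of its group. Both intervals cover counting error only. Neither Cdkn2b nor Cdkn1c was tested.

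Gm17590, an annotated gene that lies on the opposite strand to Cdk6 and shares 368 exonic bases with it, was chosen after its values were seen. It held 68, 71 and 60 expected counts in the IL-3 supernatant libraries and 25, 26 and 18 in the PBS supernatant libraries, with no overlap, and its log2 fold change was 1.33 (edgeR adjusted p = 0.00273, SE 0.30), while that of Cdk6 was -0.17. Since the kit does not mark strand, reads in the shared bases cannot be assigned to either gene. Eda2r, a receptor gene that p53 induces, was also chosen after its values were seen. It had the largest log2 fold change of the p53 target genes tested, 1.95 (edgeR adjusted p = 0.00269, SE 0.44), at 1.83 ± 0.421 CPM with IL-3 supernatant and 0.465 ± 0.165 CPM with PBS supernatant (SD, n = 3 each).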
